A study of Mus musculus with 15 samples.

Results

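The genes described here make up the machinery of the endoplasmic reticulum (ER) that takes in, folds, checks and releases secreted proteins, together with the sensors that respond when folding fails. They were chosen by symbol from known function, with earlier results of these data known. The set held 9 luminal chaperones and co-chaperones, 7 lectin chaperones and disulfide isomerases, 8 stress sensors and transcription factors and 5 translocon genes. It also held 4 genes of the translocon-associated complex, 3 signal peptidase genes, 3 genes of the signal recognition particle and 4 genes of ER-associated degradation. All 43 were found among the 44788 gene symbols of the files, each as a single entry, and all 43 had a maximal FPKM of at least 1 and were among the 16902 genes tested.

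A secreted protein is marked by a signal peptide, which the signal recognition particle brings to the Sec61 channel of the ER membrane. Signal peptidase removes the peptide, chaperones such as BiP (Hspa5) and disulfide isomerases fold the chain, and chains that stay misfolded are returned to the cytosol and degraded. Unfolded chains activate IRE1, PERK and ATF6, which slow translation and raise the genes of folding and degradation. In the stomach this machinery serves pit and neck cells that secrete mucus and chief cells that secrete pepsinogen.

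RNA-seq was carried out on whole stomachs of C57BL/6 mice at 15 timepoints with 1 transcriptome per timepoint. The fetal stage held 7 timepoints from E12.5 to E18.5, the suckling stage held 5 (D1, D3, D5, W1 and W2), and the weaned stage held 3 (W3, W6 and W8); no mutation or treatment was part of the design. According to the study's methods, several stomachs went into a sample from E12.5 to E17.5 and a single one after E18.5, with E18.5 itself not named in either group, and animals older than W2 were male, so sex was not the same in all stages. The timepoints of a stage stand in as its replicates, so the spread within a stage includes change with age and p-values measure the spread between single transcriptomes.

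Promoter sequence is shown first because several of these genes are textbook targets of the ER stress response element (ERSE), a CCAAT box and a CCACG box 9 bases apart that is bound by ATF6 and XBP1 together with NF-Y. RefSeq promoters (GRCm38.p6, from 250 bases before to 50 bases after the start site) were found for 34 of the 43 genes. An ERSE stood on either strand of 8 of these 34 (23.5%), compared with 37 of all 27025 genes with a promoter (0.137%). The 37 include these 8, and known targets were among the genes chosen, so the higher share is a description and not a result of these data. The 9 sites of the 8 genes are printed below on the strand that reads CCAAT first, with CCAAT and CCACG in capitals, and the Herpud1 line gives a second form of the element (ERSE-II, ATTGG and CCACG 1 base apart) with those boxes in capitals.
Hspa5, chr2:34772020-34772048, plus strand: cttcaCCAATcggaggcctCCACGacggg
Hsp90b1, chr10:86705528-86705556, plus strand: actcaCCAATcgtgcctcaCCACGcactc
Hsp90b1, chr10:86705633-86705661, minus strand: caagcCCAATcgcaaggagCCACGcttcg
Calr, chr8:84847070-84847098, plus strand: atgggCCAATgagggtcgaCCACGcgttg
Canx, chr11:50325795-50325823, minus strand: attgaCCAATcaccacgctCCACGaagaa
Pdia6, chr12:17266486-17266514, plus strand: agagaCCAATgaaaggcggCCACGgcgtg
Creld2, chr15:88819515-88819543, minus strand: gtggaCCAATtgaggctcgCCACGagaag
Dnajc3, chr14:118937822-118937850, plus strand: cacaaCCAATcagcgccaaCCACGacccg
Syvn1, chr19:6046527-6046555, plus strand: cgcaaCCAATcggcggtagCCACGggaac
Herpud1, chr8:94386372-94386392, plus strand: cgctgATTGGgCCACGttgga
In the GENCODE annotation the Hspa5 site lay in an exon of Hspa5 itself, the Herpud1 site lay in a transcript of Gm15890, and no transcript was annotated over the other 8 sites. ERSE-II was found in 2 of 34 genes (Herpud1 and Dnajb11) and in 0.0444% of all genes. The XBP1 and ATF6 site TGACGTGG was found in 0 of 34 and in 0.714% of all genes, and the shorter TGACGT in Canx, Dnajb11 and Hspa5, 8.82% of the 34 against 8.37% of all genes. These are matches of letters and were not tested for binding.

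The scale of the FPKM values bears on every comparison below. The median gene of the 16902 tested differed by -0.22 on the log2 scale between suckling and fetal stomach, by -0.42 between weaned and suckling and by -0.62 between weaned and fetal, so a gene near these values moved like the median gene. After median-ratio scaling, which divides each transcriptome by the median of its ratios to the mean profile, the same medians were 0.01, -0.03 and -0.01. Differences are therefore given on both scales as log2(FPKM + 1), with limma's moderated test, Benjamini-Hochberg adjustment over all genes and a threshold of 0.01. A difference after birth is the suckling stage minus the whole fetal stage, E18.5 included, and is not the step across birth itself. In bulk tissue a larger share of secretory cells and more RNA per cell cannot be told apart.

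Across the 3 stages 23 of the 43 genes differed on the deposited FPKM (67.9% of all genes did), and 28 differed after median-ratio scaling (57.7% of all genes). After birth 10 genes rose (Agr2, Ern2, Herpud1, Sdf2l1, Creb3l4, Xbp1, Dnajc3, Dnajb9, Eif2ak3 and Dnajb11) and 5 fell (Srp72, Ssr1, Sec61g, Srp68 and Ssr3), where 10.8% of all genes rose and 30.6% fell. The 10 that rose also passed the test after median-ratio scaling, which called 21 genes higher (17.55% of all genes) and 0 lower (14.6% of all genes), with 0 lower also at an unadjusted p under 0.05 (27.9% of all genes). The median difference of the 43 genes was 0.21 on the deposited FPKM and 0.50 after scaling. With weaning 0 genes rose (2.57% of all genes) and 8 fell (28.9% of all genes), and after scaling 0 rose (12.2% of all genes) and 0 fell (7.95% of all genes). At an unadjusted p under 0.05 in limma, 0 were higher and 17 lower on the deposited FPKM, where 5.98% and 52.7% of all genes were. After scaling 20 were higher and 1 lower at that level, where 24.8% and 21.5% of all genes were. The weaning difference was above 0 for 7 of the 43 genes on the deposited FPKM and for 39 after scaling, compared with 3112 and 8051 of the 16902 genes. limma with trend and robust fitting also called 0 higher with weaning, and 10 lower.

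Between fetal and weaned stomach, 6 genes rose (Agr2, Ern2, Herpud1, Creb3l4, Xbp1 and Dnajc3) and 14 fell on the deposited FPKM, where 10.6% of all genes rose and 54.6% fell. After scaling 28 rose (28.1% of all genes) and 0 fell (25.7% of all genes), with 0 lower at an unadjusted p under 0.05 as well (34% of all genes). Sec61a1 passed the test in both directions, at -0.33 (SE 0.09, adjusted p = 0.0034) on the deposited FPKM and at 0.53 (SE 0.11, adjusted p = 0.0006) after scaling. The 3 contrasts share transcriptomes and are not independent of each other. The count of genes that rose after birth was 18 without E18.5, 6 without E13.5, E14.5 or E15.5, and 4 without D3, W1 or W2. The count of all genes moved as well. It was 2254 of 16881 without E18.5. It was 1386 of 16856 without E13.5, 1394 of 16849 without E14.5 and 1448 of 16859 without E15.5. It was 1422 of 16870 without D3, 1382 of 16876 without W1 and 1282 of 16840 without W2.

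**Figure D1:**
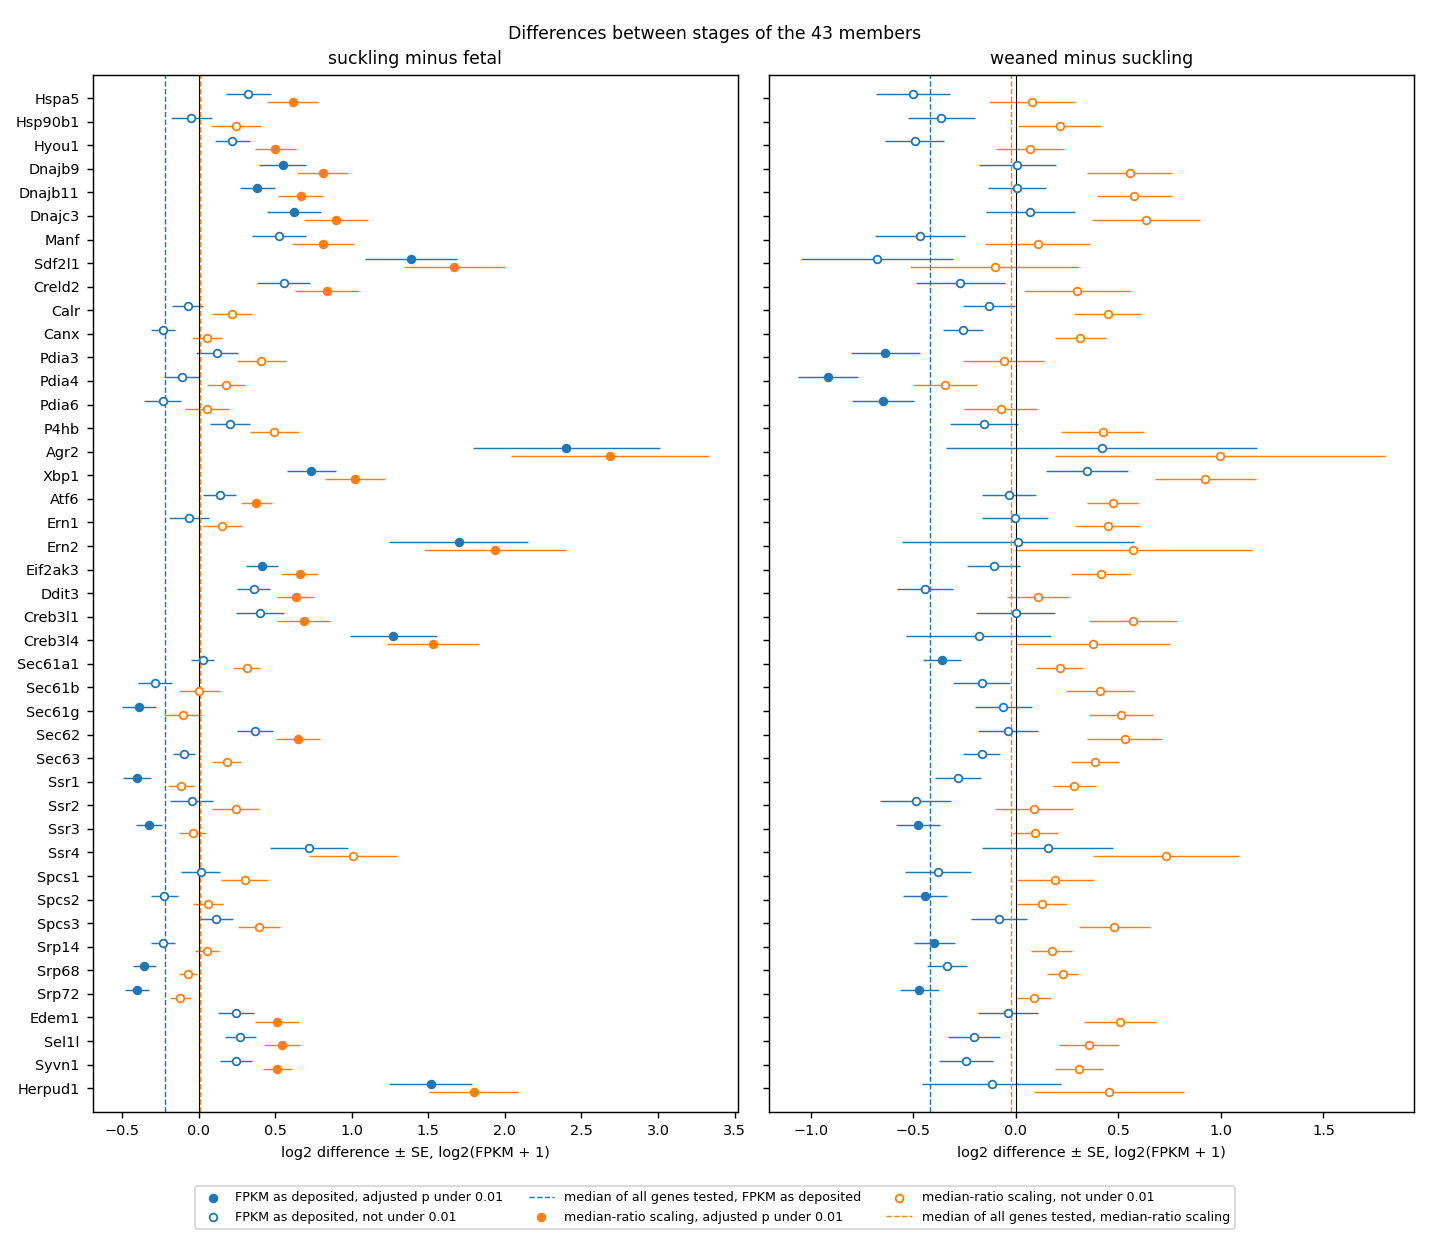
Log2 difference with its standard error for each of the 43 genes, suckling minus fetal on the left and weaned minus suckling on the right, on the deposited FPKM (blue) and after median-ratio scaling (orange); filled points passed an adjusted p of 0.01 and dashed lines mark the median of all genes tested. After birth Agr2, Ern2, Herpud1, Sdf2l1 and Creb3l4 stand furthest to the right on both scales, and with weaning the blue points lie mostly left of 0 and the orange points mostly right of it.

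Of the 9 luminal chaperones and co-chaperones, 4 rose after birth and 0 fell on the deposited FPKM, where 10.8% of all genes rose and 30.6% fell. Their highest FPKM fell at W1 for 6 of the 9 (Hspa5, Hyou1, Dnajb11, Manf, Sdf2l1 and Creld2), at W2 for Dnajb9 and Dnajc3, and at E18.5 for Hsp90b1. Of all genes 1.72%, 5.82% and 3.41% were highest at W1, W2 and E18.5. After median-ratio scaling Dnajb11, Creld2 and Dnajc3 were highest at W6 and Dnajb9 at W3, and the others kept their timepoint. Hspa5, the BiP chaperone that holds unfolded chains and keeps the stress sensors inactive, had a lowest, median and highest fetal FPKM of 314, 326 and 557, the highest at E18.5. In suckling stomach it stood at 433 (D1), 493 (D3), 415 (D5), 560 (W1) and 393 (W2), and in weaned stomach at 369 (W3), 296 (W6) and 303 (W8). The suckling values lay above every fetal value but E18.5, and the weaned values lay below every suckling value. The difference after birth was 0.33 (SE 0.14, adjusted p = 0.066) and with weaning -0.50 (SE 0.18, adjusted p = 0.032), neither past the threshold. After median-ratio scaling Hspa5 rose after birth by 0.61 (SE 0.17, adjusted p = 0.0083), and the weaning difference was 0.08 (adjusted p = 0.80), of the opposite sign.

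Sdf2l1, a cofactor of the BiP cycle, showed the widest range of the luminal genes. Its fetal FPKM ran from 34.7 at E13.5 through a median of 43.7 to 145 at E18.5. The suckling values were 124, 135, 122, 190 and 123 from D1 to W2, and the weaned values were 91.7, 80.3 and 83.5. All 5 suckling values exceeded 6 of the 7 fetal ones, and the weaned values lay between. Sdf2l1 rose after birth by 1.39 (SE 0.30, adjusted p = 0.0016) and by 1.67 after scaling, while the weaning difference of -0.68 (SE 0.37, adjusted p = 0.14) did not pass the test. Of the other 7 luminal genes, Dnajc3, Dnajb9 and Dnajb11 rose after birth by 0.62, 0.55 and 0.38 (adjusted p = 0.0076, 0.0070 and 0.0096). These are co-chaperones that deliver clients to BiP. Their FPKM at E18.5 was 31.1, 15.1 and 62.7, and at D1 it was lower, at 23.2, 12.2 and 55.9. Hsp90b1, the ER form of HSP90, differed by -0.05 (adjusted p = 0.77), and Hyou1, Manf and Creld2 by 0.22, 0.53 and 0.56 (adjusted p = 0.11, 0.020 and 0.013).

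**Figure D2:**
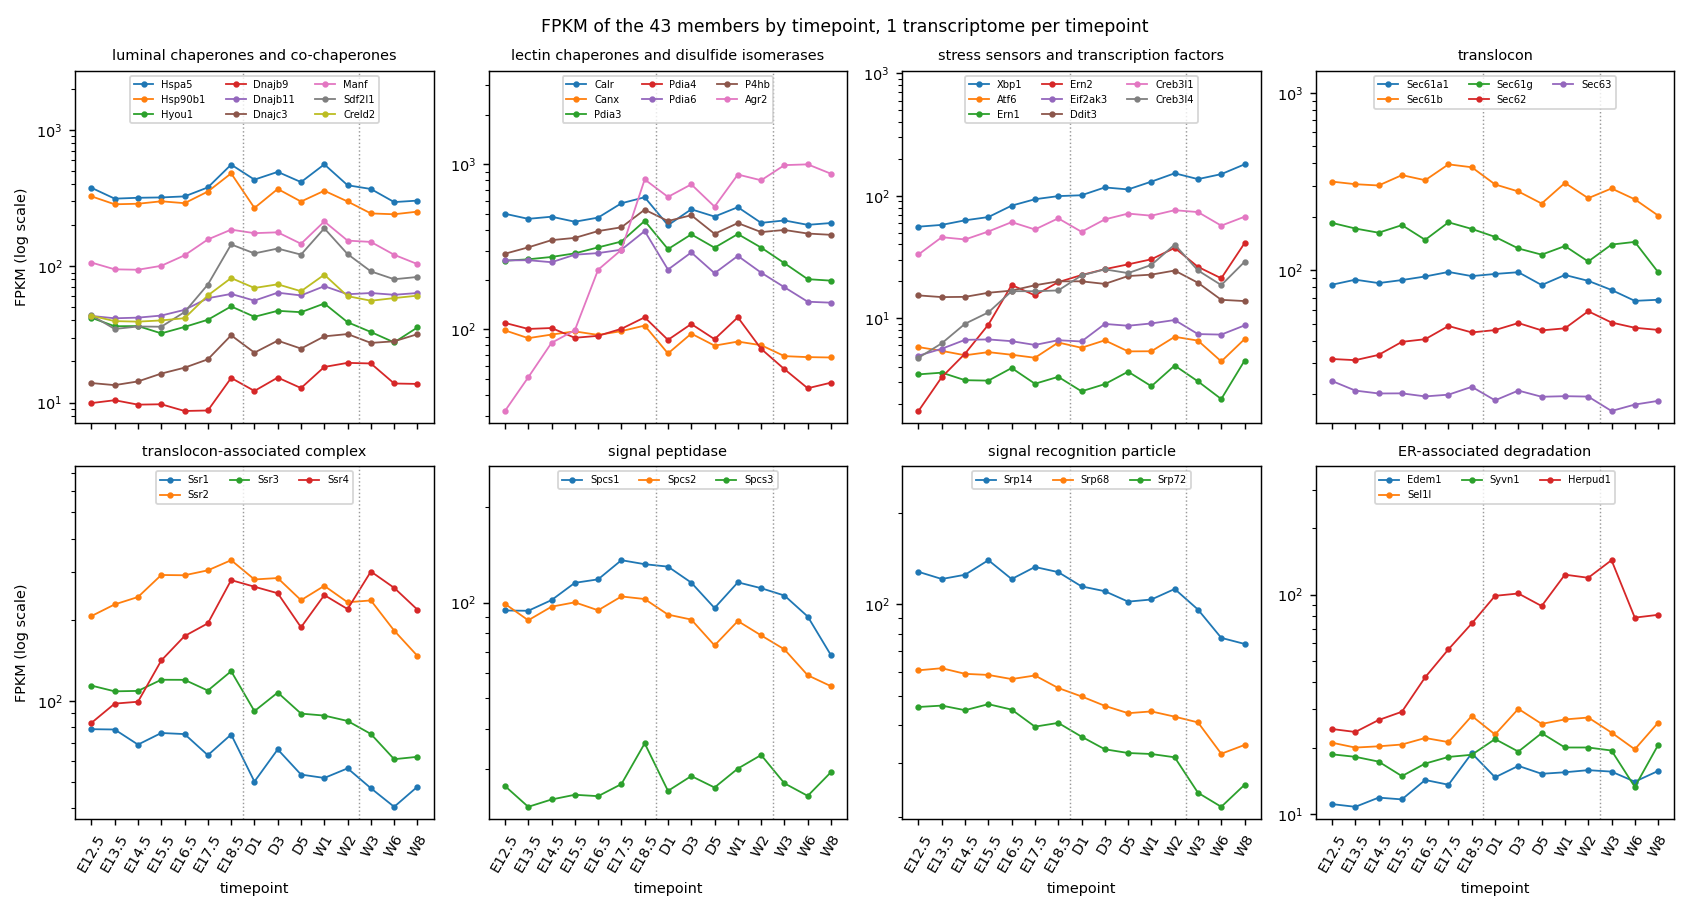
FPKM on a log axis of each of the 43 genes at the 15 timepoints, 1 panel per role and 1 point per transcriptome, with dotted lines at birth and between W2 and W3. Many lines step up at E18.5 and dip at D1 and D5, Agr2 climbs from 32.0 at E12.5 to 998 at W6, and Srp72 declines from 45.0 in the fetal median to 21.6 at W6.

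The lectin chaperones and disulfide isomerases divided into Agr2 and the rest. Agr2, a disulfide isomerase of mucus-secreting cells, had fetal FPKM from 32.0 (E12.5) through a median of 98.6 to 808 (E18.5). Suckling stomach gave 634, 755, 553, 866 and 799 from D1 to W2, and weaned stomach gave 987, 998 and 875. Every weaned value exceeded every suckling value, and E18.5 alone of the fetal timepoints lay within the suckling range. Agr2 rose after birth by 2.40 (SE 0.61, adjusted p = 0.0043), and the weaning difference of 0.42 (SE 0.76, adjusted p = 0.66) did not pass the test. Its fold from E12.5 to E18.5 was 25.3, and averaged over the 15 timepoints it had the highest FPKM of the 43 genes (538), ahead of Calr (489).

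Pdia4 fell with weaning. This isomerase had fetal FPKM from 88.8 (E15.5) through a median of 101 to 118 (E18.5), suckling FPKM of 86.2, 108, 87.1, 118 and 76.1, and weaned FPKM of 57.3, 43.9 and 47.5. The weaned values lay below all others. Pdia4 fell with weaning by 0.92 on the log2 scale (SE 0.15, adjusted p = 0.0005), and after median-ratio scaling its difference was -0.35 (SE 0.16, adjusted p = 0.097). Pdia6 and Pdia3 also fell with weaning on the deposited FPKM, at -0.65 and -0.64 (adjusted p = 0.0035 and 0.0071), and stood at -0.07 and -0.06 after scaling, close to the median gene. Calnexin (Canx) and calreticulin (Calr), the lectins that hold glycoproteins during folding, differed after birth by -0.23 and -0.07 and with weaning by -0.26 and -0.13, and P4hb by 0.21 and -0.16, none past the threshold.

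The 8 sensors and transcription factors of the stress response had their highest deposited FPKM at W2 (Atf6, Eif2ak3, Ddit3, Creb3l1 and Creb3l4) or at W8 (Xbp1, Ern1 and Ern2), where 5.82% and 5.44% of all genes had theirs. After median-ratio scaling Atf6, Eif2ak3, Creb3l1 and Creb3l4 were highest at W8 as well, and Ddit3 stayed at W2. On that scale 12.8% of all genes were highest at W8 and 3.19% at W2. Xbp1, the factor that IRE1 activates by splicing and that secretory cells need to build their ER, ran from 55.9 (E12.5) through a median of 67.0 to 99.3 (E18.5) in fetal stomach. It stood at 101, 117, 113, 130 and 153 in suckling stomach and at 137, 150 and 181 in weaned stomach. No suckling value fell within the fetal range. Xbp1 rose after birth by 0.74 (SE 0.16, adjusted p = 0.0017), and the weaning difference was 0.35 (SE 0.20, adjusted p = 0.15) and 0.92 after scaling (adjusted p = 0.010, just over the threshold). These values count all Xbp1 reads and do not separate the spliced form.

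IRE1 exists in a general form (Ern1) and a form of mucosal epithelia (Ern2). Ern1 was low throughout, with fetal FPKM of 2.91 to 3.91 around a median of 3.31, suckling FPKM of 2.52, 2.89, 3.65, 2.78 and 4.10, and weaned FPKM of 3.04, 2.18 and 4.49. The stages overlapped, and its differences were -0.06 after birth (adjusted p = 0.70) and -0.01 with weaning (adjusted p = 0.99). Ern2 ran from 1.74 (E12.5) through a median of 8.84 to 19.7 (E18.5) in fetal stomach, then stood at 22.5, 25.1, 27.5, 30.3 and 37.5 in suckling stomach and at 26.2, 21.2 and 41.0 in weaned stomach. All 8 postnatal values exceeded all 7 fetal ones. Ern2 rose after birth by 1.70 (SE 0.45, adjusted p = 0.0058), and its weaning difference was 0.01 (SE 0.57, adjusted p = 0.99). The adjusted p after birth lay between 0.010 and 0.017 when E13.5, E14.5, E15.5, D3, D5, W1 or W2 was left out, with differences of 1.52 to 1.74.

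The ratio of Ern2 to Ern1 is not moved by the scale of a transcriptome. It was 0.502 at E12.5, 5.94 at E18.5, between 7.53 and 10.9 in suckling stomach, and 8.63, 9.70 and 9.13 in weaned stomach. The mean log2 ratio was 1.19 ± 1.37 (SD, n = 7) in fetal stomach, 3.17 ± 0.19 (SD, n = 5) in suckling stomach and 3.19 ± 0.08 (SD, n = 3) in weaned stomach. The fetal and suckling ratios did not overlap (p = 0.0025 in an exact permutation test, two-sided, where 792 splits allow no smaller value). The ratio already rose at each fetal step, through 0.919, 1.65, 2.87, 4.77 and 5.28 from E13.5 to E17.5. A steady rise with age also gives this p when it is split at birth, so the p does not place the change at birth. Weaned and suckling ratios differed by 0.03 (exact two-sided permutation test, p = 0.82).

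**Figure D3:**
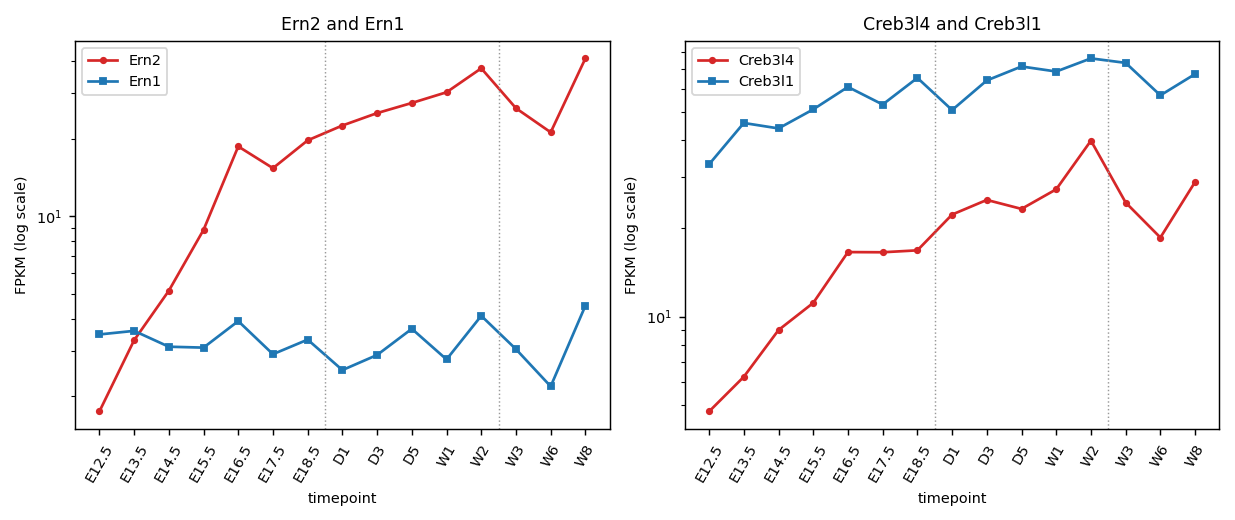
FPKM on a log axis of Ern2 and Ern1 on the left and of Creb3l4 and Creb3l1 on the right at the 15 timepoints, 1 transcriptome each, with dotted lines at birth and between W2 and W3. Ern2 starts below Ern1 at E12.5 (1.74 against 3.47) and ends above it at W8 (41.0 against 4.49), while Creb3l4 stays below Creb3l1 throughout.

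Creb3l1 and Creb3l4 are membrane-bound factors of the OASIS family, freed by cleavage in the Golgi to drive genes of secretion. Creb3l1 had fetal FPKM of 33.1 to 65.4 with a median of 51.0, suckling FPKM of 50.8, 64.1, 71.5, 68.7 and 76.2, and weaned FPKM of 73.6, 57.0 and 67.4. Its stages overlapped, and its difference after birth was 0.40 (SE 0.15, adjusted p = 0.037) and with weaning -0.00 (SE 0.19, adjusted p = 1.0). Creb3l4 ran from 4.74 (E12.5) through a median of 11.1 to 16.8 (E18.5), then stood at 22.3, 25.0, 23.3, 27.2 and 39.9 in suckling stomach and at 24.5, 18.6 and 28.8 in weaned stomach. All 8 postnatal values lay above the fetal ones. Creb3l4 rose after birth by 1.27 (SE 0.28, adjusted p = 0.0020), with a weaning difference of -0.18 (adjusted p = 0.68). The ratio of Creb3l4 to Creb3l1 was 0.143 at E12.5, 0.258 at E18.5 and 0.428 at W8, and its mean log2 was -2.24 ± 0.46 (SD, n = 7), -1.29 ± 0.25 (SD, n = 5) and -1.47 ± 0.22 (SD, n = 3) in the 3 stages. Suckling exceeded fetal by 0.95 (exact two-sided permutation test, p = 0.0025), and weaned differed from suckling by -0.19 (exact two-sided permutation test, p = 0.36). This ratio too had risen within the fetal stage, to 0.313 at E17.5, so the p for suckling against fetal does not place the change at birth.

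Ddit3, the CHOP factor that PERK signalling induces and that promotes cell death under lasting stress, moved within a narrow range. Its fetal FPKM ran from 14.9 to 19.98 with a median of 16.1, its suckling FPKM was 19.99, 19.0, 22.1, 22.7 and 24.5, and its weaned FPKM was 19.4, 14.1 and 13.8. Of the suckling values only D3 lay below the fetal maximum, and D1 was level with it. The difference after birth was 0.36 (SE 0.11, adjusted p = 0.011) and with weaning -0.44 (SE 0.13, adjusted p = 0.014), both just over the threshold. After scaling Ddit3 rose after birth by 0.63 (adjusted p = 0.0011), and its weaning difference of 0.11 (adjusted p = 0.61) had the opposite sign. Of the other sensors, PERK (Eif2ak3) rose after birth by 0.41 (SE 0.10, adjusted p = 0.0038), and Atf6 differed by 0.14 (adjusted p = 0.27).

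Of the 15 genes of the translocon, the translocon-associated complex, signal peptidase and the signal recognition particle, 0 rose and 5 fell after birth on the deposited FPKM, where 10.8% of all genes rose and 30.6% fell. Sec61a1, the pore of the channel, had fetal FPKM of 82.8 to 97.7 with a median of 88.4, suckling FPKM of 95.2, 97.4, 82.4, 93.9 and 87.0, and weaned FPKM of 77.3, 67.1 and 68.1. The weaned values lay below all others. Sec61a1 differed by 0.03 after birth (adjusted p = 0.77) and fell with weaning by 0.36 on the log2 scale (SE 0.09, adjusted p = 0.0065), where its sign turned after scaling (0.21, adjusted p = 0.16). The weaning call was lost, at -0.32 to -0.36, when E15.5, D1, D3, W1, W6 or W8 was left out. Sec61g, a small subunit of the channel, had fetal FPKM of 148 to 186 with a median of 172, suckling FPKM of 154, 133, 122, 137 and 112, and weaned FPKM of 139, 144 and 97.5. It fell after birth by 0.39 on the log2 scale (SE 0.11, adjusted p = 0.0086), and after scaling its difference was -0.10 (adjusted p = 0.52). That call was lost, with an adjusted p of 0.011 to 0.028, when any fetal timepoint but E16.5, or any suckling timepoint but D1, was left out. Sec61b, Sec62 and Sec63 differed after birth by -0.28, 0.37 and -0.09, none past the threshold.

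The 4 subunits of the translocon-associated complex, which helps some chains into the channel, did not move together. Ssr4 had fetal FPKM of 82.9 (E12.5) to 281 (E18.5) with a median of 141, suckling FPKM of 265, 251, 188, 247 and 219, and weaned FPKM of 302, 263 and 218. Its difference after birth was 0.72 (SE 0.26, adjusted p = 0.026), and 0.89 (adjusted p = 0.0024) without E18.5. Ssr2 had fetal FPKM of 206 to 333 with a median of 292, suckling FPKM of 282, 286, 236, 267 and 232, and weaned FPKM of 236, 182 and 147. Its stages overlapped, with -0.05 after birth (adjusted p = 0.79) and -0.49 with weaning (adjusted p = 0.030). Ssr1 and Ssr3 fell after birth by 0.40 and 0.32 on the log2 scale (adjusted p = 0.0021 and 0.0056) and differed by -0.12 and -0.04 after scaling. From E12.5 to E18.5 the fold of Ssr4 was 3.38, against 1.61 for Ssr2, 1.13 for Ssr3 and 0.956 for Ssr1.

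Spcs2, a subunit of signal peptidase, had fetal FPKM of 87.9 to 104 with a median of 99.0, suckling FPKM of 91.6, 88.4, 73.3, 87.5 and 78.8, and weaned FPKM of 71.2, 59.1 and 54.6. The weaned values lay below all others. It fell with weaning by 0.44 on the log2 scale (SE 0.11, adjusted p = 0.0046), and its sign turned after scaling (0.13, adjusted p = 0.43). The weaning call was lost without D1, D3, W1, W6 or W8. A processed copy of Spcs2 is listed at 0.131 FPKM or less in every transcriptome. Spcs1 and Spcs3 differed by 0.01 and 0.12 after birth and by -0.38 and -0.08 with weaning, none past the threshold.

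Srp72, the largest protein partner of the signal recognition particle together with Srp68, declined at both borders on the deposited FPKM. Its fetal FPKM was 39.6 to 46.9 with a median of 45.0, its suckling FPKM was 36.7, 33.4, 32.4, 32.2 and 31.4, and its weaned FPKM was 24.0, 21.6 and 25.5. The 3 stages did not overlap. Srp72 fell after birth by 0.40 (SE 0.08, adjusted p = 0.0008) and with weaning by 0.47 (SE 0.10, adjusted p = 0.0016) on the log2 scale, and without W6 the weaning difference of -0.41 did not pass (adjusted p = 0.014). After scaling the differences were -0.12 and 0.09 (adjusted p = 0.15 and 0.43), close to the median gene and of opposite sign with weaning. Srp68 fell after birth by 0.35 (adjusted p = 0.0018) and Srp14 with weaning by 0.40 (adjusted p = 0.0050), and neither passed after scaling.

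Among the genes of ER-associated degradation, Herpud1 stood apart. Herpud1, a membrane protein that gathers the degradation complex and is a classic stress target, had fetal FPKM of 23.7 (E13.5) to 73.9 (E18.5) with a median of 29.3. Suckling stomach gave 98.6, 101, 88.7, 123 and 119, and weaned stomach gave 143, 78.5 and 80.9. All 8 postnatal values lay above the fetal ones. Herpud1 rose after birth by 1.52 (SE 0.27, adjusted p = 0.0006), the lowest adjusted p of the 43 genes in that contrast, and its weaning difference was -0.12 (SE 0.34, adjusted p = 0.78). Syvn1, the ubiquitin ligase of the pathway, had fetal FPKM of 14.9 to 18.8 with a median of 18.2, suckling FPKM of 22.0, 19.3, 23.4, 20.1 and 20.1, and weaned FPKM of 19.5, 13.3 and 20.7. The suckling values lay above all fetal ones, but the difference of 0.24 (SE 0.10, adjusted p = 0.059) did not pass. After scaling Syvn1 rose by 0.51 (adjusted p = 0.0008), as did Edem1 and Sel1l (0.51 and 0.55, adjusted p = 0.0087 and 0.0021).

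The timepoint at which each gene was highest was read off after the values had been seen and is given as a description. E18.5 was the highest timepoint of 10 of the 43 genes (Hsp90b1, Calr, Canx, Pdia3, Pdia6, P4hb, Ssr2, Ssr3, Spcs3 and Edem1), and of 3.41% of all genes. W1 was the highest of 7 (1.72% of all genes), W2 of 8 (5.82%), E17.5 of 5 (5.83%) and W8 of 3 (5.44%). At E18.5 18 of the 43 genes were at least 1.25 times as high as at E17.5, against 17% of all genes, and 0 were lower by that factor, against 23.5% of all genes. The largest of these folds were 2.67 for Agr2, 1.97 for Sdf2l1, 1.73 for Dnajb9, 1.50 for Dnajc3 and 1.47 for Hspa5. After median-ratio scaling 4 genes were highest at E18.5, 19 at W6 and 12 at W8, against 2.09%, 19.9% and 12.8% of all genes. The place of the peak thus turned with the scale, for all genes too. On the deposited FPKM 2.75% of all genes were highest at W6 and 5.44% at W8.

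Single steps after E18.5 went up and down. On D1 15 of the 43 were lower than at E18.5 by at least that factor, against 28.1% of all genes, and 2 were higher by it (Creb3l4 and Herpud1), against 18.6% of all genes. On W1 11 were higher than on D5 by that factor, against 9.31% of all genes. The median step of the 43 genes was 0.24 into E18.5, -0.24 into D1, 0.15 into D3, -0.19 into D5 and 0.19 into W1, where the median of all genes was -0.04, -0.06, 0.02, 0.01 and -0.12. At any size of step, 8 of the 43 genes were higher on D1 than at E18.5 (41.3% of all genes), 33 on D3 than on D1 (52.6% of all genes), 5 on D5 than on D3 (52.4% of all genes), 37 on W1 than on D5 (31.8% of all genes) and 16 on W2 than on W1 (55.4% of all genes). The 8 that were higher on D1 were Xbp1, Ern2, Ddit3, Creb3l4, Sec61a1, Sec62, Syvn1 and Herpud1.

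Of the 5 epithelial markers, 4 were lower on D1 than at E18.5 and Krt18 was higher (448 against 412), all 5 were higher on D3 than on D1, 0 were higher on D5 than on D3, and all 5 were higher on W1 than on D5 and on W2 than on W1. Epcam, for one, stood at 132 (E18.5), 106 (D1), 136 (D3), 105 (D5), 134 (W1) and 152 (W2). Of the smooth muscle markers, Acta2 (3110), Myh11, Actg2 and Cnn1 were highest at D5, and Des was highest at W3 (697, against 594 at D5). These steps compare single transcriptomes and have no replicate check, and the part of tissue composition in them was not tested.

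**Figure D4:**
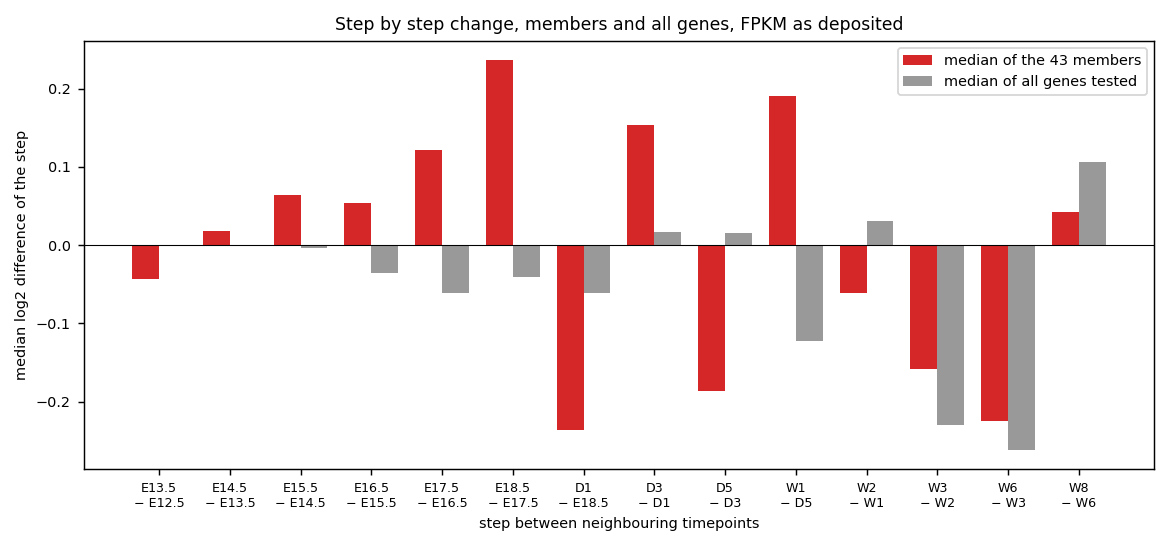
Median log2 difference from each timepoint to the next, for the 43 genes (red) and for all genes tested (grey), on the deposited FPKM. The red bars reach 0.24 into E18.5, turn to -0.24 into D1 and alternate in sign to W2, while the grey bars stay between -0.26 and 0.11.

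The 8 genes with an ERSE had a median fold from E17.5 to E18.5 of 1.32, from 1.02 (Syvn1) to 1.50 (Dnajc3), and 5 of them reached 1.25. The 26 genes whose promoters held none had a median fold of 1.12, from 0.918 (Sec61g) to 2.67 (Agr2), and 9 reached 1.25. On the deposited FPKM, used for these folds, 17% of all genes reached it. After birth 1 of the 8 rose (Dnajc3) and 8 of the 26 on the deposited FPKM, where 10.8% of all genes rose. Their median log2 differences were 0.10 and 0.23. The largest rises after birth among the 26 were those of Agr2 (2.40), Herpud1 (1.52), whose promoter holds the ERSE-II form, Sdf2l1 (1.39) and Creb3l4 (1.27), and Ern2 was not matched to a promoter.

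The share of secreted gastric products in the summed FPKM grew more than that of the 43 genes. The summed FPKM of 13 secreted gastric products (Cym, Pga5, Pgc, Gif, Lipf, Chia1, Tff1, Tff2, Gkn1, Gkn2, Gkn3, Muc5ac and Muc6) was 0.0986% of all FPKM at E12.5, 6.83% at E18.5, 19.4% at W2 and 25.2% at W8. Different genes made up this sum at different ages. Chymosin (Cym), which clots milk, held 35716 and the pepsinogen Pga5 15711 of the 58124 FPKM at E18.5, and Cym held 106792 of the 186658 FPKM at W2 and fell to 194 at W8, where pepsinogen C (Pgc) held 151321 of 282869. Lipf is listed at 0 at all 15 timepoints. The 43 genes held 0.562% at E12.5, 0.828% at E18.5, 0.578% at W2 and 0.426% at W8. The 15 chaperones and isomerases other than Agr2 summed to 2522 FPKM at E12.5, 3841 at E18.5 and 2218 at W8, and Agr2 alone to 32.0, 808 and 875. Chaperone FPKM per 100 FPKM of secreted product was 332 at E12.5 and 6.61 at E18.5. The summed FPKM of a transcriptome was itself not fixed and ran from 745538 (E14.5) to 1344957 (W6).

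**Figure D5:**
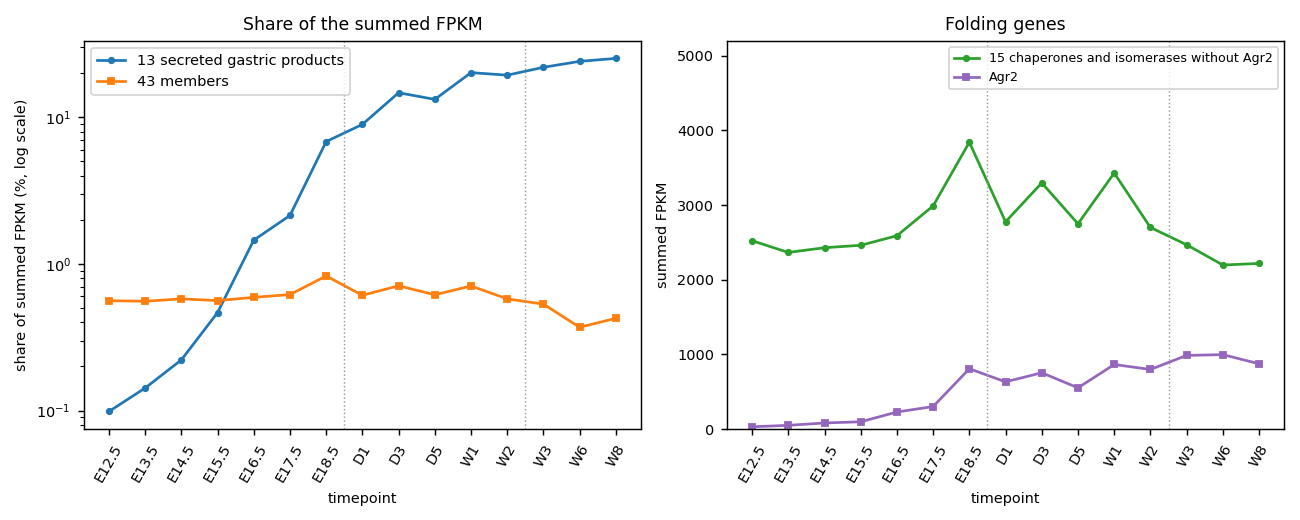
Left, share of the summed FPKM (log axis, %) of the 13 secreted gastric products and of the 43 genes at each timepoint; right, summed FPKM of the 15 chaperones and isomerases without Agr2 and of Agr2 alone. The secreted share climbs from 0.0986% to 25.2% while that of the 43 genes stays between 0.370% and 0.828%.

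Other genes of the same route were taken from lists by function, 77 of them measured above the minimum. After birth 12 (15.6%) rose and 18 (23.4%) fell, with a median difference of -0.11, where 10.8% of all genes rose and 30.6% fell. After scaling 21 rose and 2 fell, with a median of 0.16, where 17.55% and 14.6% of all genes did. With weaning 1 rose and 19 (24.7%) fell (median -0.21), where 2.57% and 28.9% of all genes did. After scaling 16 rose and 1 fell with weaning (median 0.34), where 12.2% and 7.95% of all genes did. Of 13 COPII genes and cargo receptors 0 rose and 4 fell, and of 10 KDEL receptor and COPI genes 0 rose and 4 fell after birth on the deposited FPKM, where 10.8% of all genes rose and 30.6% fell. At an adjusted p of 0.01 after scaling, 1 gene of each of these lists rose, against 17.55% of all genes. Sec23a, a coat subunit of ER exit vesicles, fell after birth by 0.88 on the log2 scale (adjusted p = 0.0004) and by 0.60 after scaling (adjusted p = 0.0009).

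Among these related genes Derl3, a Derlin of degradation that also stands on the list of plasma and B cell markers, rose after birth by 3.58 (adjusted p = 0.0001), from a fetal mean of 2.47 FPKM to a suckling mean of 30.4. Creb3l3 rose by 2.22 (adjusted p = 2.7e-05) from 0.372 to 5.69 FPKM and fell with weaning by 1.29 on the log2 scale (adjusted p = 0.0017). Fkbp11, a proline isomerase of secretory cells, rose after birth by 1.17 (adjusted p = 0.0059), and Ero1lb, an oxidase that recharges the isomerases, was the single gene of the 77 that rose with weaning, by 1.14 (adjusted p = 0.0034) to a mean of 15.4 FPKM. Sec11c, a catalytic form of signal peptidase, had means of 56.8, 110 and 162 FPKM with differences that did not pass (adjusted p = 0.019 and 0.36), and Sec11a fell with weaning by 0.44 (adjusted p = 0.0060), a sign that turned after scaling (0.13). Among 8 genes of the integrated stress response 3 rose and 1 fell after birth, where 10.8% and 30.6% of all genes did. Atf5 fell with weaning by 1.28 (adjusted p = 0.0028).

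Markers of the tissue and of its neighbours are given as ranges of summed FPKM. The 5 epithelial markers summed to 388 to 1874 in fetal, 1492 to 2675 in suckling and 2500 to 3160 in weaned stomach, and none was at 0. They did not move together with weaning. Krt8 alone held 2034 of the 3160 FPKM at W6, where Krt18 was also highest. Epcam, Cdh1 and Cldn18 were highest at W2, and Epcam went from 152 at W2 to 104, 75.5 and 78.1 at W3, W6 and W8. The 4 chief cell markers summed to 147 to 577, 1376 to 11957 and 89287 to 162735. Most of the weaned sum was Pgc, with 86122.5 FPKM at W3 and 151321 at W8. Bhlha15, also on this list, ran from 9.43 to 13.1 in suckling and from 8.55 to 13.6 in weaned stomach. With weaning 2 of the 4 rose and 0 fell on the deposited FPKM. Dividing cell markers fell from 155 to 326 in fetal to 29.7 to 57.0 in weaned stomach, with 5 of 5 passing the test after birth on both scales.

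The 6 liver markers summed to 34.0 to 254 FPKM in fetal, 261 to 1305 in suckling (highest on D1) and 1497 to 2402 in weaned stomach, and none was at 0. Alb, Afp, Apoa2 and Serpina1a were highest on D1 (Alb at 460.5 and Afp at 186), Ttr at W3 and Apoa1 at W6 (2270). The 14 pancreatic acinar markers summed to 6.71 to 82.8, 34.2 to 221 (highest on D3) and 147 to 289. Of these 6 were highest on D3 (Ctrb1 at 84.5), 7 at W6 or W8 (Try4 at 103 and Cela1 at 96.0) and 1 at E15.5, and Cpa1, Cela2a, Cela3b, Prss2, Try4, Try5 and Ptf1a were at 0 at some timepoints. Without D1 and D3 the genes that rose after birth numbered 5 and those that fell with weaning 1. Of all 16741 genes tested without these timepoints, 1211 rose after birth and 1723 fell with weaning. The 6 plasma and B cell markers summed to 2.05 to 12.1, 20.9 to 39.9 and 11.9 to 28.0 FPKM, most of it in the postnatal stages from Derl3, described above, which reached 38.8 at W1. Of the other 5, Cd79b reached 2.47 on D1, and Igj, Mzb1, Cd79a and Pou2af1 were at most 0.759 and were at 0 at some timepoints. The part of these tissues and cells in the results was not tested.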

How the data were processed

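Stomach RNA of 15 timepoints was analysed, 1 transcriptome each. The authors deposited FPKM values per gene with lower and upper confidence bounds. The submitters' processing notes name Bowtie 0.12.2 and GRCm38.p2, and the study's methods name other tools, so the aligner behind the files is uncertain; the methods also name liver as the source of RNA where the labels name stomach. Read depth is unknown, because FPKM hold no counts. The deposited bounds lay 5.24% of the FPKM either side of it in the median over the 43 genes and timepoints, and 20.4% at the widest (Ern2 at E12.5). What enters these bounds is not known. They come from 1 transcriptome each and do not hold the spread between animals.

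Entries of a symbol were summed. The 16902 genes whose highest FPKM reached 1 were compared as log2(FPKM + 1), which understates the change of low genes, with limma 3.58.1 in R 4.3.3 in one fit of 3 stages without covariates. P-values were adjusted over all genes (Benjamini-Hochberg, threshold 0.01). The fit was tested on simulated data with independent noise around a constant mean in each stage. These held no trend with age within a stage and no shift in the scale of a transcriptome, so the fit was not tested under either. Birth and weaning set the stages; the border at W3 follows the study. Ratios were tested by exact permutation over transcriptomes. Alternatives were median-ratio and quantile scaling, a fixed sum without the 10 highest genes, other filters and a pseudocount of 0.1, other stage borders, first entries only, limma with trend and robust fitting, and leaving out each timepoint.

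The 43 genes and all lists were chosen with earlier results of these data known. Full values are given for 18 genes: 8 picked by role, and in each role and contrast the gene with the largest difference. No other columns were used. Promoters came from RefSeq; no protein sequences were used here. A marker gene is not reported here.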

Additional observations from a re-analysis of the deposited data

Results flagged for a closer look

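Within a stage, the gap of a single timepoint to its nearest neighbour, set against the range of the stage, was tested for each of the 43 genes by Dixon's rule. Of 86 groups of fetal or suckling values 13 stood out. A rate of 1 in 20 would give 4.3 groups, but that rate holds for independent draws without a trend, and the values of a stage follow age. The genes are also not independent of each other since they share the transcriptomes. The share of all genes that stand out by this rule was not computed, so the 13 are not read as particular to these genes.

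In fetal stomach the value that stood out was E18.5 in each case, the last timepoint before birth. It was the highest fetal FPKM of Hspa5 (557.4, nearest other value 379), Hsp90b1 (481, nearest 354), Dnajb9 (15.1, nearest 10.4), Dnajc3 (31.1, nearest 20.7) and Sdf2l1 (145, nearest 73.4) among the luminal chaperones. The same held for Pdia3 (453, nearest 340.0), Pdia6 (393, nearest 303) and Agr2 (808, nearest 303) among the isomerases, for Spcs3 of signal peptidase (36.1, nearest 26.9), and for Edem1 (19.0, nearest 14.3) and Sel1l (28.0, nearest 22.3) of degradation. None of the genes of the translocon, the translocon-associated complex or the signal recognition particle was among them. In suckling stomach Sdf2l1 stood out at W1 (190, nearest 135) and Creb3l4 at W2 (39.9, nearest 27.2). Several stomachs went into a sample up to E17.5 and a single one after E18.5. With 1 transcriptome per timepoint, age, pooling and library cannot be told apart.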

How the results depend on the processing

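The design held 1 transcriptome per timepoint, so age, litter and library cannot be told apart within a stage, and read depth is unknown. No paired analysis was possible because the replicate numbers only name the timepoints of a stage. Differences with weaning turned with the scale, which the FPKM alone cannot settle. The counts below are of the 43 genes called, out of 10 higher and 5 lower after birth, 0 higher and 8 lower with weaning, and 6 higher and 14 lower from fetal to weaned stomach on the deposited FPKM. A pseudocount of 0.1, a minimum of 2 FPKM, first entries only and limma with trend and robust fitting kept each of these counts within 1.5 times its value. Of the values of single genes under an alternative, 839 kept their direction and their side of the threshold, 39 passed it, 58 no longer did and 72 turned in direction. Where a count or a sign changed, the cause was not tested.

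With E18.5 joined to the suckling stage, 19 genes were higher and 2 lower after birth and 10 higher from fetal to weaned stomach. Of all 16902 genes, 2229, 5935 and 1984 were. With E17.5 and E18.5 joined to it, 16 were higher and 2 lower after birth, 15 lower with weaning and 11 higher from fetal to weaned stomach. Of all genes, 2479, 6035, 7225 and 2138 were. With W3 joined to the suckling stage, 2 were higher from fetal to weaned stomach, against 1349 of all genes. Median-ratio scaling gave 21 higher and 0 lower after birth, 0 lower with weaning, and 28 higher and 0 lower from fetal to weaned stomach. For all genes these counts were 2966, 2470, 1343, 4750 and 4347. Quantile normalization gave 16 higher after birth, 1 higher and 3 lower with weaning, and 18 higher and 9 lower from fetal to weaned stomach. For all genes they were 2361, 1376, 896, 3853 and 4835. A fixed sum without the 10 highest genes gave 0 lower after birth, 3 lower with weaning, and 10 higher and 8 lower from fetal to weaned stomach. For all genes they were 3253, 3185, 2120 and 8128. Without a filter 5 were higher after birth and 3 from fetal to weaned stomach, against 1628 and 1805 of 28775 genes. A pair of alternatives was chosen after seeing the data. Without D1 and D3, 5 were higher after birth, 1 lower with weaning and 3 higher from fetal to weaned stomach. Of 16741 genes, 1211, 1723 and 1683 were. Median-ratio scaling with E18.5 joined to the suckling stage gave 27 higher and 0 lower after birth, 8 higher and 0 lower with weaning, and 32 higher and 0 lower from fetal to weaned stomach. For all 16902 genes these counts were 3447, 3109, 2515, 1751, 4929 and 4634.

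Leaving out 1 timepoint gave 4 to 18 genes higher and 3 to 6 lower after birth, 1 to 12 lower with weaning, and 1 to 10 higher and 9 to 14 lower from fetal to weaned stomach. Among 16785 to 16881 genes, the ranges were 1282 to 2254, 3707 to 6045, 1359 to 5660, 1384 to 1984 and 8041 to 9365. The fall with weaning was at 4 genes without D1 or D3, 5 without W1, 1 without W6 and 2 without W8. Of all genes 3750, 3422, 4204, 1359 and 3014 fell without D1, D3, W1, W6 and W8. The rise from fetal to weaned stomach was at 10 genes without E18.5, 3 without E13.5, E14.5, E15.5 or W8, 2 without W6 and 1 without W3, and the fall was at 9 without W8. Of all genes 1984 rose without E18.5, 1457 without W6 and 1384 without W3, and 8674 fell without W8. Without E13.5, E14.5, E15.5 or W8, 1605, 1599, 1625 and 1470 of all genes rose. The weaning difference of the log2 ratio of Ern2 to Ern1 ran from -0.0366 to 0.0967. The single-gene values that turned in direction when a timepoint was left out had not passed the test with all timepoints. They ran with weaning from -0.21 to 0.18 for Ern1, -0.25 to 0.21 for Ern2, -0.0918 to 0.0995 for Creb3l1, -0.16 to 0.12 for Sec61g and -0.40 to 0.0312 for Herpud1, and after birth from -0.11 to 0.0064 for Ssr2.

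Signs of single log2 differences turned as follows. After birth, median-ratio scaling gave 0.16 for Ern1, 0.18 for Pdia4, 0.24 for Ssr2 and 0.0633 for Spcs2, and with E18.5 joined to the suckling stage as well it gave 0.17, 0.27, 0.36 and 0.12. With weaning, median-ratio scaling gave 0.0770 for Hspa5, 0.45 for Ern1, 0.57 for Creb3l1, 0.38 for Creb3l4, 0.11 for Ddit3, 0.51 for Sec61g, 0.21 for Sec61a1, 0.0881 for Ssr2, 0.13 for Spcs2, 0.0878 for Srp72, 0.45 for Herpud1 and 0.31 for Syvn1. With E18.5 joined as well, these 12 genes stood at 0.0516, 0.46, 0.60, 0.51, 0.15, 0.47, 0.23, 0.0522, 0.10, 0.0625, 0.56 and 0.36 in the same order. Quantile normalization gave 0.0068 for Ern1 and 0.013 for Ssr2 after birth, and 0.62 for Ern1, 0.19 for Creb3l1, 0.15 for Creb3l4, 0.0759 for Sec61g, 0.0537 for Herpud1 and 0.14 for Syvn1 with weaning. The fixed sum gave 0.0034 for Ern1 and 0.0379 for Ssr2 after birth, and 0.0453 for Ern1 and 0.0596 for Creb3l1 with weaning. E18.5 joined to the suckling stage gave 0.0656 for Ssr2 after birth and 0.000357 for Creb3l1 with weaning. E17.5 joined too gave 0.14 for Ssr2 after birth, and 0.0435 for Creb3l1, 0.0059 for Creb3l4 and 0.0804 for Herpud1 with weaning. W3 joined to the suckling stage gave -0.012 for Sec61a1 after birth, and 0.0171 for Ern1 and -0.0199 for Ssr4 with weaning. Without D1 and D3, Ern1 stood at 0.0475 and Sec61a1 at -0.0264 after birth, and Ern2 at -0.15 and Sec61g at 0.0225 with weaning.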
